A study of Mus musculus with 192 samples.

Results

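The glutathione transferases of the alpha, pi and theta classes were examined as 9 genes, namely Gsta1, Gsta2, Gsta3 and Gsta4 (alpha), Gstp1 and Gstp2 (pi) and Gstt1, Gstt2 and Gstt3 (theta). They were taken by gene symbol from a table of 54752 genes and followed in 9 tissues, which makes 81 pairs of gene and tissue. These were the liver (Liv) and kidney (Kid), the epididymal white (eWAT) and interscapular brown (iBAT) fat depots, the cerebrum (Cbr), 2 lymphoid organs, the spleen (Spl) and thymus (Thy), and 2 bones, the temporal (TpB) and mandibular (MdB).

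All mice were C57BL/6J males (C57BL/6 in the labels), labelled as 12 weeks old, either wild-type (WT) or with a whole-body knockout of Nrf2 (Nrf2KO in the labels, Nrf2-KO here, carrying the tm1Ymk allele). WT and Nrf2-KO mice were either flown to the International Space Station (FL_WT, FL_KO) or kept on the ground in the same kind of single-mouse cage (GC_WT, GC_KO), and Nrf2-KO mice judged to have an intrahepatic shunt had been excluded in all groups. The ground mice were housed at another site and in a later season than the flight mice, so site, date and flight cannot be told apart. The paper names a flight food for the flight mice and a differently named food for the ground mice, so food cannot be told apart either. Groups held 6 mice per tissue and 3 in MdB and Kid, and flight mouse 04 was left out, which leaves 5 FL_KO mice, or 2 in MdB and 3 in Kid, and 184 of 192 samples.

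Glutathione transferases join the tripeptide glutathione to electrophilic compounds, and the conjugates are then exported and trimmed into mercapturic acids. Nrf2 is a transcription factor that is held in the cytoplasm by Keap1, is released by electrophiles or oxidants, and binds antioxidant response elements (AREs) with a small Maf partner. Alpha class enzymes handle steroids, aflatoxin epoxides and lipid aldehydes, the pi class is abundant in male mouse liver, and theta class enzymes act on small halogenated compounds and sulfate esters.

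The 9 genes lie in 4 places of the genome (build GRCm38). Gsta3 is on chromosome 1 (21240589 to 21265661), while Gsta4 (78182774 to 78209349), Gsta1 (78230656 to 78242684) and Gsta2 (78331018 to 78355788) share a stretch of chromosome 9. Gstt3, Gstt1 and Gstt2 lie in this order on chromosome 10, between 75774115 and 75837424, with Gstt4 between Gstt1 and Gstt2. Gstp1 (4035407 to 4037985) and Gstp2 (4040285 to 4046023) are next to each other on chromosome 19.

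Promoter windows of 300 bases were available for 7 of the 9 members, from RefSeq on GRCm38.p6. The ARE core was searched on both strands in its usual form TGACNNNGC and in the form TGAGNNNGC, which are present in 12.4% and 17.6% of 32851 promoter windows, and in 27.8% together. The windows below show a member with the first form (Gsta3, which was lower in Nrf2-KO mice in more tissues than any other member), the near-copies Gstp1 and Gstp2, a theta member (Gstt1), and an alpha member with neither form (Gsta2). Capitals mark the ARE core matches, and each window starts 250 bases before the transcription start.
Gsta3: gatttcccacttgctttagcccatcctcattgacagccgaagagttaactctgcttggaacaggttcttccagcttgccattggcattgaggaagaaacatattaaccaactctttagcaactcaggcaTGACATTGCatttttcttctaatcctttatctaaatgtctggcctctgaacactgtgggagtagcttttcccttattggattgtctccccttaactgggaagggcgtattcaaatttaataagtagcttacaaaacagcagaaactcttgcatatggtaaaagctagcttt
Gsta2: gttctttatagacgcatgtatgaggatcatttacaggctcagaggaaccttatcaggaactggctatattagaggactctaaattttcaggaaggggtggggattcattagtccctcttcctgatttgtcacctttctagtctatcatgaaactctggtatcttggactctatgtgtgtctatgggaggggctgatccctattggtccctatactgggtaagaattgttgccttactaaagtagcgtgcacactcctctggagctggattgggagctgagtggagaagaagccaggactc
Gstp1: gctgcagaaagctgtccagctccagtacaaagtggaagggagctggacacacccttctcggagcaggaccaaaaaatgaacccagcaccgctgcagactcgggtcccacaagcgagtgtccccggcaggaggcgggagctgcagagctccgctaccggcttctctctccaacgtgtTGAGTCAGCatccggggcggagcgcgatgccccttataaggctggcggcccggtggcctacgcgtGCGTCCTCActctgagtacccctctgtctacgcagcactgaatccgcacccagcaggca
Gstp2: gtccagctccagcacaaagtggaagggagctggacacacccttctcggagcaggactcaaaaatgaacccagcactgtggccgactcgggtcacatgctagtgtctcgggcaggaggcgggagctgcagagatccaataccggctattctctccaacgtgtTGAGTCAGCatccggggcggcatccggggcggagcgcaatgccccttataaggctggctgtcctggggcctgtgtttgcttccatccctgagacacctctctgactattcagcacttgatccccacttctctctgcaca
Gstt1: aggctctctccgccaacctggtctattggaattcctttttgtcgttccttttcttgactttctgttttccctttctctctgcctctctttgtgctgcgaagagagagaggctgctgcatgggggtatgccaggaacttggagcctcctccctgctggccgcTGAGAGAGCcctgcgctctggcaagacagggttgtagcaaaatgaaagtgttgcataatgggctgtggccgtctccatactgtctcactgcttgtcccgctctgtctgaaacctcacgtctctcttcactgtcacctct
These are chr1:21240335-21240634 on the plus strand (Gsta3), and chr9:78347096-78347395 (Gsta2), chr19:4037863-4038162 (Gstp1), chr19:4042172-4042471 (Gstp2) and chr10:75797682-75797981 (Gstt1) on the minus strand. The Gsta3 match TGACATTGC lies at -121 to -113 from the start. Gstp1 and Gstp2 both carry TGAGTCAGC, at -74 to -66 and at -89 to -81, and its first letters also match the AP-1 site TGANTCA, which 7.81% of windows hold. Gstp1 holds a further match on the other strand that ends just before the start, and Gstt1 holds TGAGAGAGC at -89 to -81. The windows of Gsta1, Gsta2 and Gstt3 hold neither form. Sites outside the windows were not searched, and the windows of Gsta2 and Gstp2 lie inside the gene spans given above. A match describes letters only, and no binding was measured.

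Near-identical copies limit what the values mean for some members. The libraries were single reads of 76 bases, and the longest coding transcripts of Gsta1 and Gsta2 are 96.7% identical and those of Gstp1 and Gstp2 90.6%. Of all 76-base stretches in Gsta1 transcripts, 84.5% also occur in another gene (Gm3776, Gsta2 or Gm10639), against 36.2% for Gsta2, 29% for Gstp1, 50% for Gstp2 and 11.5% for Gstt3, and none for Gsta3, Gsta4, Gstt1 and Gstt2. On the longest coding transcript alone, the shares were 86.1% for Gsta1, 46.3% for Gsta2, 57.5% for Gstp1, 68% for Gstp2 and 24.9% for Gstt3. Reads that fit several genes were divided between them by the estimate of the authors. Of the counts above 0, 2.13% for Gsta1 and 2.08% for Gstp1 were whole numbers to within 0.005. Values of Gsta1, Gsta2, Gstp1 and Gstp2 are therefore uncertain as values of those genes, most of all for Gsta1 and Gstp2. The sums of the near-copies were tested as an alternative.

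Expected counts summed to 13.1 to 16.3 M per library, and to 8.01 to 10.6 M in Thy, where ribosomal RNA was depleted rather than poly(A) RNA selected. Nfe2l2, the gene that encodes Nrf2, had a mean TPM (transcript abundance per length, scaled to the same total in each library) in Nrf2-KO mice of 28.2% (Cbr) to 81.9% (Spl) of that in WT mice, and the genotypes did not overlap in any of the 9 tissues. Each tissue held its own markers, with all 5 liver genes, all 7 proximal tubule genes and all 5 white fat genes detected in each group of Liv, Kid and eWAT. Some libraries held markers of a neighbouring tissue. In iBAT, FL_WT mice 6 and 8 and FL_KO mouse 11 had summed skeletal muscle levels of 7347, 3595 and 9008 TPM, where the 20 other libraries had at most 78.5. In eWAT, GC_KO mouse 11 had 151 TPM of epididymis and testis genes (others at most 4.55), and in Spl, FL_WT mouse 8 had 629 TPM of pancreas genes (others at most 13.6). TpB libraries were uneven in content, with muscle levels of 401 to 29230 TPM within GC_KO alone. Results are given with these 5 libraries, and without them where a call changed. In bulk RNA, fewer cells of a type and less RNA per cell cannot be told apart.

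In GC_WT mice, Liv held the highest level of 5 of the 9 members. Gstp1 led with 3828 ± 545 TPM in Liv (SD, n = 6), at place 41 among the genes of that tissue, and Gsta3 followed with 2105 ± 266 TPM, at place 62. Both stood far above their next tissue, which was Kid for Gstp1 (349.5 ± 10.8 TPM, n = 3) and eWAT for Gsta3 (450.3 ± 40 TPM, n = 6). Mice of neighbouring tissues did not overlap at these steps. For Gsta3 the order ran on through Kid (189 ± 5.81 TPM) to Spl (49.5 ± 6.12 TPM), and the levels from Spl down to MdB, TpB, iBAT, Thy and Cbr overlapped from each tissue to the next.

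Gsta4, which conjugates the lipid peroxidation product 4-hydroxynonenal, had another order. It was highest in MdB (642 ± 164 TPM, n = 3), then in TpB (136 ± 38.9 TPM) and Liv (99.8 ± 19.7 TPM), which overlapped. The lowest means were 9.05 ± 0.548 TPM in Thy and 8.2 ± 1.35 TPM in Spl, which overlapped as well. By counts scaled for library size across tissues, with no correction for length, the same tissue stayed highest for 8 of the 9 members, and for Gstp2 it changed from TpB to Liv.

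Among the theta members, Gstt1 was highest in Liv (261 ± 29 TPM), followed by eWAT (144 ± 13.7 TPM) and Kid (130.3 ± 2.89 TPM), which overlapped. Gstt2 was highest in Kid (215 ± 28.6 TPM), above Liv (64.7 ± 13.9 TPM) and eWAT (58.9 ± 14.4 TPM), which overlapped with each other. Gstt3 had 44 ± 10.2 TPM in Liv and 30.7 ± 0.896 TPM in Kid. Of the near-copies, Gsta2 was highest in Kid (114 ± 23.5 TPM) and Liv (69.8 ± 23.4 TPM), whose mice did not overlap. Gsta1 reached 12.6 TPM at most in any GC_WT mouse, and Gstp2 had its highest mean in TpB (39.4 ± 7.22 TPM).

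**Figure D1:**
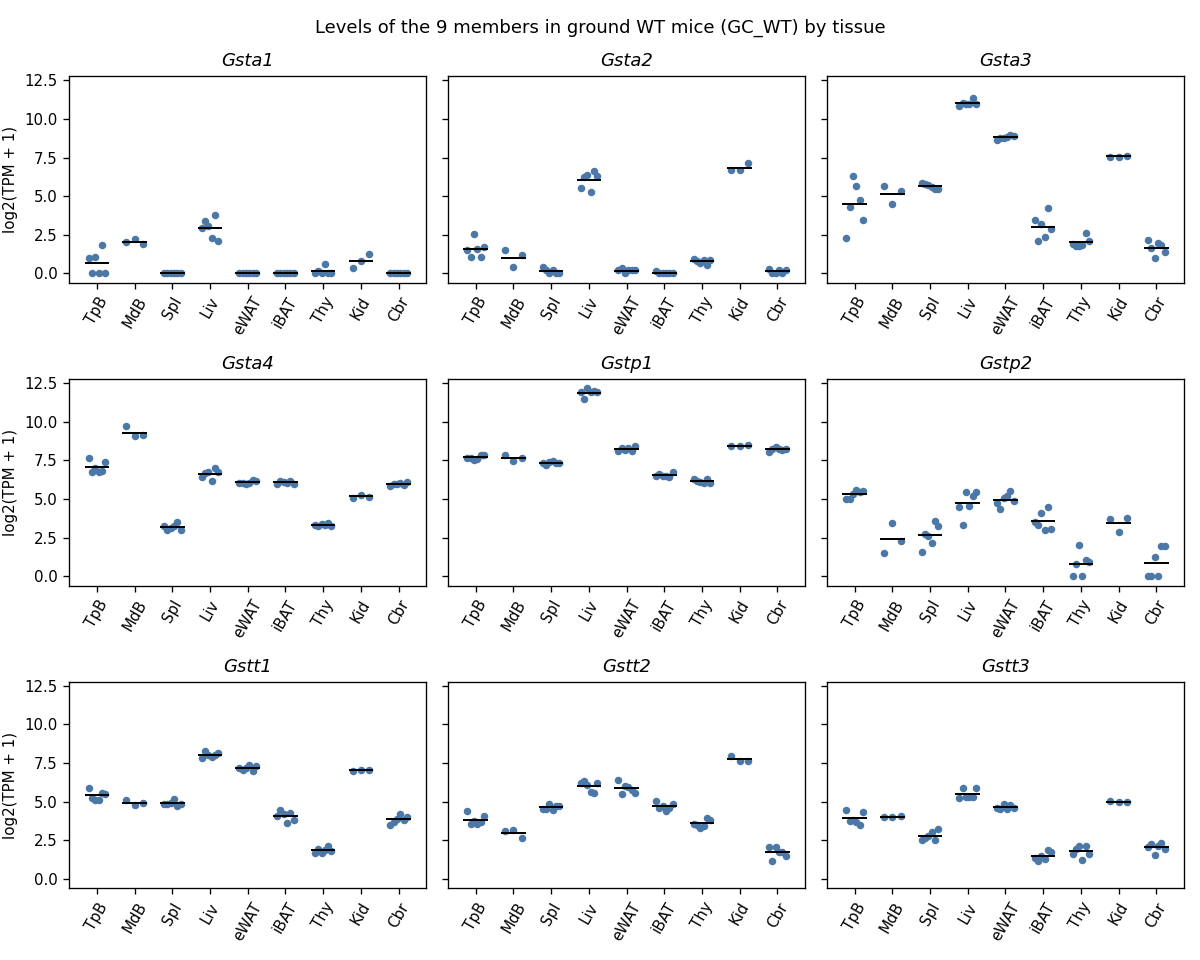
Level of each of the 9 members in GC_WT mice, as log2(TPM + 1) on the vertical axis, by tissue on the horizontal axis, where points are mice and lines are means. Gstp1 and Gsta3 reached their highest levels in Liv, Gsta4 in MdB, and Gsta2 and Gstt2 in Kid.

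Summed over the 9 members, GC_WT mice held 6509 ± 634 TPM in Liv, 1076 ± 53.6 TPM in eWAT and 1075 ± 32.6 TPM in Kid, and 100.3 ± 7.89 TPM in Thy. Gstp1 and Gsta3 made up 58.7% and 32.4% of that sum in Liv, and Gsta3 and Gstp1 41.8% and 28% in eWAT. In MdB, Gsta4 alone made up 68% of the sum. In FL_KO mice the sum was 3323 ± 251 TPM in Liv, 668 ± 38.9 TPM in eWAT and 769 ± 81.3 TPM in Kid (n = 5, 5 and 3), and in none of these tissues did it overlap with GC_WT.

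The comparison of genotypes asked which of these transferases depend on Nrf2, on the ground and after flight. Gsta3 was lower in Nrf2-KO mice in 6 tissues, Gsta4 in Liv and MdB, Gsta2 and Gstp1 in Liv and Kid, and Gsta1 in Liv, under both conditions, and no theta member was called by edgeR. Of the 81 pairs of member and tissue, 69 passed the filter on low counts and were tested with edgeR, and the 12 others were 7 of Gsta1 and 5 of Gsta2. On the ground, 15 of 69 pairs were lower in Nrf2-KO mice and 0 higher, while 0.814% of all tests over genes and tissues were called lower and 0.836% higher. After flight, 14 of 69 pairs were lower and 0 higher, against 0.855% called lower and 0.5% called higher among all tests. Alpha members made up 12 of the 15 calls on the ground and 12 of the 14 after flight, Gstp1 the remaining 3 and 2, and 0 of the 27 theta pairs was called by edgeR. At an unadjusted p under 0.05 in edgeR, 21 of the 69 pairs were lower and 4 higher on the ground, and 17 and 5 after flight. The share of all tests at that threshold is not given, so these counts are not read as a result.

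In the tissues with calls, the share of all genes called lower on the ground was 1.04% in Kid, 1.7% in Liv, 0.538% in Spl, 1.41% in eWAT, 1.13% in iBAT, 1.13% in Thy and 0.189% in MdB. After flight these shares were 1.32%, 2.29%, 0.662%, 0.659%, 1.27%, 1.34% and 0.11%, in the same order. By class, the median log2 fold change over the tested pairs was -0.64 for the 24 alpha pairs on the ground and -0.72 after flight. It was -0.04 and -0.07 for the 18 pi pairs, and 0.02 and 0.03 for the 27 theta pairs. The median over all tested genes was close to 0 in each tissue.

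**Figure D2:**
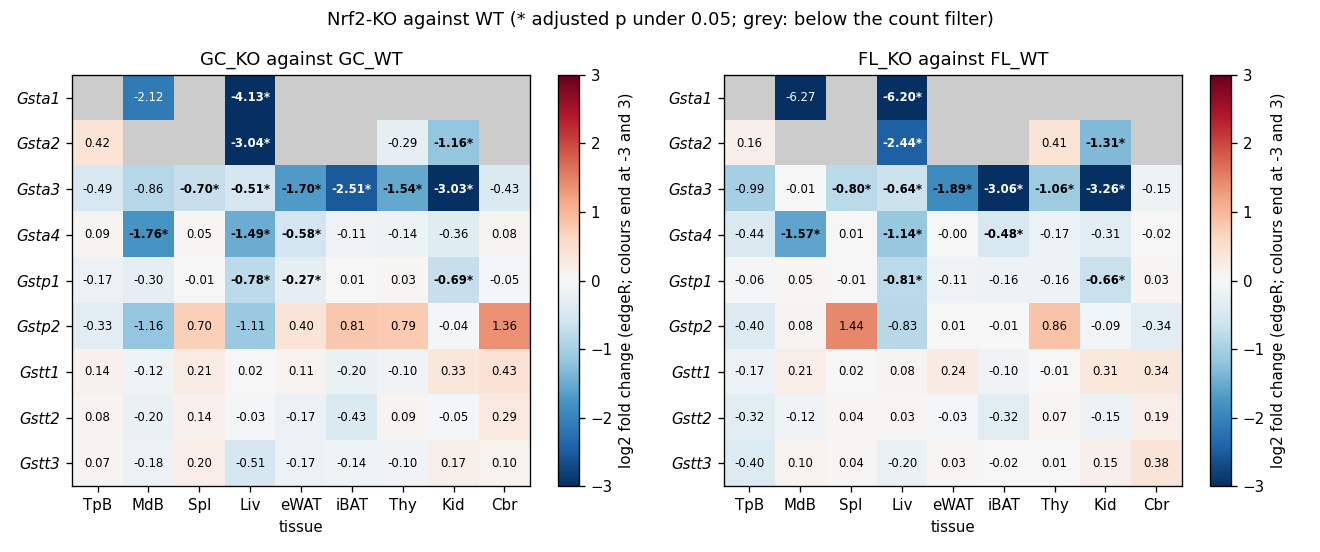
Log2 fold change of Nrf2-KO against WT mice by edgeR for each member (rows) and tissue (columns), on the ground (left) and after flight (right), with asterisks at an adjusted p under 0.05 and grey where counts were too low. Gsta3 was lower in 6 tissues on both sides, and no theta member was called by edgeR.

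Gsta3 was the member with the most calls, lower in Nrf2-KO mice in Kid, Liv, Spl, eWAT, iBAT and Thy, both on the ground and after flight. In Kid, the 3 GC_WT mice had 185, 186 and 196 TPM, the 3 FL_WT mice 160.3, 193 and 196, the 3 GC_KO mice 21.6, 23.6 and 23.8, and the 3 FL_KO mice 16.8, 17.3 and 20.6. Every Nrf2-KO kidney was below every WT kidney. The log2 fold change was -3.03 ± 0.10 (SE, adjusted p = 5.51e-09) on the ground and -3.26 ± 0.11 (adjusted p = 2.82e-09) after flight, from edgeR's quasi-likelihood test with Benjamini-Hochberg adjustment as throughout. Proximal tubule markers (7 of 7 detected) summed to 5216 to 5696 TPM in GC_WT and 5448 to 5692 in GC_KO kidneys, which overlapped. After flight they were 5404 to 6000 in FL_WT and 5168 to 5341 in FL_KO, without overlap, and their part in the result was not tested.

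In eWAT, Gsta3 ran from 392 to 504 TPM in GC_WT (median 447) and from 153 to 304 in FL_WT (median 194). It ran from 108 to 180 TPM in GC_KO (median 159) and was 33.7, 60.7, 61, 61.5 and 66.4 in the 5 FL_KO mice. Genotypes did not overlap on the ground or after flight, with log2 fold changes of -1.70 ± 0.17 (adjusted p = 8.69e-07) and -1.89 ± 0.19 (adjusted p = 8.42e-07). White fat markers (Adipoq, Lep, Retn, Plin1 and Cfd) summed to 24680 to 38030 TPM in GC_WT and 22010 to 28300 in GC_KO, and to 14980 to 24040 in FL_WT and 17420 to 25330 in FL_KO, so the genotypes overlapped under both conditions.

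In Liv the same gene stood at a far higher level. It ran from 1824 to 2614 TPM in GC_WT (median 2037), from 1902 to 2375 in FL_WT (median 2250) and from 1265 to 1943 in GC_KO (median 1329), and was 1231, 1515, 1524, 1533 and 1680 in FL_KO. The ground genotypes overlapped, since the highest GC_KO mice reached 1830 and 1943 TPM, while those after flight did not. The log2 fold change was -0.51 ± 0.10 on the ground (adjusted p = 0.00316) and -0.64 ± 0.11 after flight (adjusted p = 0.00045). The 95% intervals of the ground differences (normal, from the SE) were -3.23 to -2.83 in Kid and -0.71 to -0.32 in Liv, and the difference between tissues was not tested.

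Gsta3 was also lower in Spl, from 42.4 to 57.2 TPM in GC_WT and 24.3 to 34.3 in GC_KO, without overlap. The log2 fold change there was -0.70 ± 0.14 (adjusted p = 0.00642) and -0.80 ± 0.14 after flight (adjusted p = 0.00241), again without overlap. Erythroid markers in Spl (7 of 8 detected) summed to 6687 to 25650 TPM in GC_WT and 8010 to 38330 in GC_KO, and to 1279 to 5396 in FL_WT and 2467 to 4131 in FL_KO, and the genotypes overlapped under both conditions.

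At low levels, Gsta3 was lower in iBAT and Thy as well. In iBAT it ran from 3.2 to 17.9 TPM in GC_WT and 0.57 to 2.03 in GC_KO, without overlap, with a log2 fold change of -2.51 ± 0.59 (adjusted p = 0.0239). After flight, it ran from 1.12 to 18.6 TPM in FL_WT and was 0.11, 0.3, 0.63, 0.89 and 1.72 in FL_KO, so the groups overlapped, with -3.06 ± 0.67 (adjusted p = 0.017). That call was lost without the 3 iBAT libraries that held muscle markers (-2.80, adjusted p = 0.133), without FL_KO mouse 1 (adjusted p = 0.0566) and without FL_KO mouse 12 (adjusted p = 0.0566), and with only both flight groups in the fit (adjusted p = 0.163). In Thy it ran from 2.43 to 5.07 TPM in GC_WT and 0.62 to 1.21 in GC_KO, with -1.54 ± 0.24 (adjusted p = 0.000335) and no overlap. After flight it was -1.06 ± 0.24 in Thy (adjusted p = 0.0149), from 2.99 to 6.6 TPM in FL_WT and 1.42 to 2.73 in FL_KO, also apart, and the call was lost without FL_KO mouse 12 (adjusted p = 0.061).

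No call was made for Gsta3 in TpB, MdB or Cbr. In TpB its level was from 3.96 to 77.9 TPM within GC_WT alone and from 5.3 to 61.1 within GC_KO, so that the difference of -0.49 came with an interval of -2.07 to 1.09. No genotype difference was detectable at that spread. In MdB the difference was -0.86 ± 0.33 on the ground (adjusted p = 0.864), and in Cbr -0.43 ± 0.24 (adjusted p = 0.63) at a mean of 2.29 TPM in GC_WT.

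**Figure D3:**
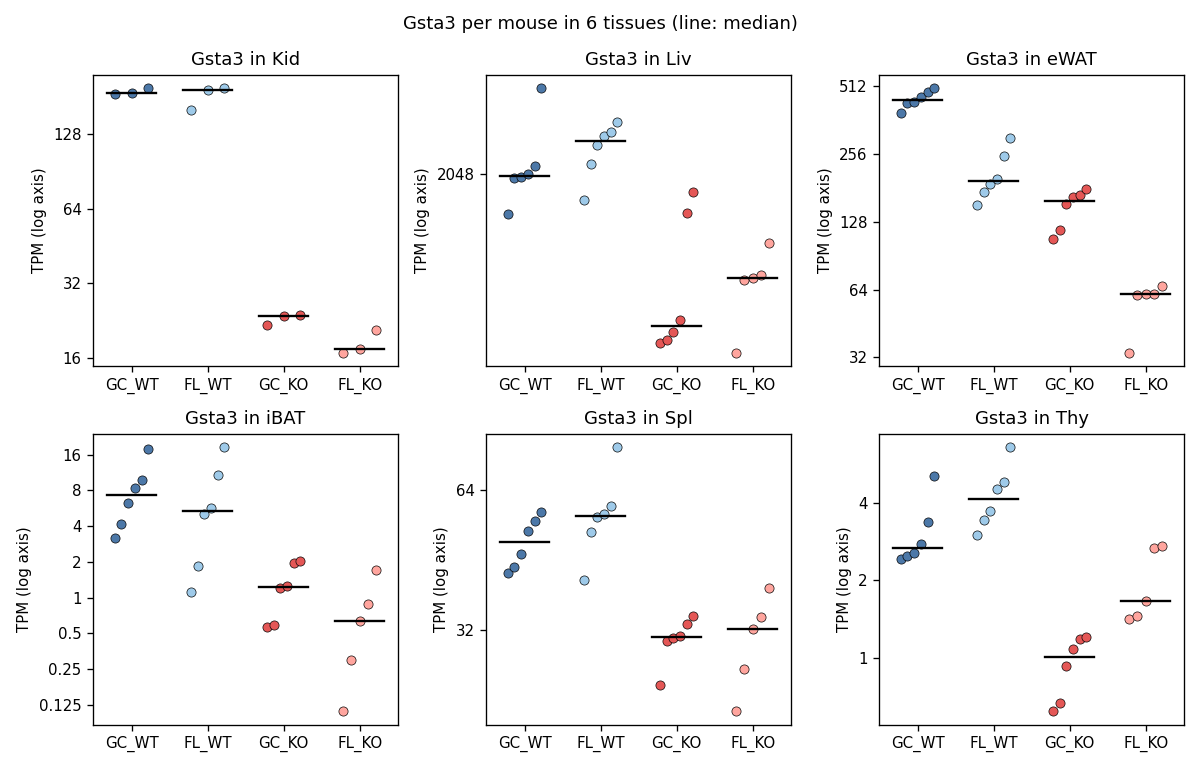
TPM of Gsta3 per mouse on log axes in 6 tissues (points, with the median as a line) for GC_WT, FL_WT, GC_KO and FL_KO. Nrf2-KO mice lay below WT mice in Kid, eWAT and Spl without overlap on the ground or after flight, and in eWAT flight mice also lay below ground mice of the same genotype.

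Gsta4 was lower in Nrf2-KO mice in MdB and Liv under both conditions. In MdB, the 3 GC_WT mice had 532, 563 and 829.9 TPM, the 3 FL_WT mice 342, 490.1 and 530.1, the 3 GC_KO mice 137, 193 and 225, and the 2 FL_KO mice 143 and 145. All 5 Nrf2-KO mice were below all 6 WT mice, with log2 fold changes of -1.76 ± 0.23 on the ground (adjusted p = 0.00499) and -1.57 ± 0.26 after flight (adjusted p = 0.0353). With 2 FL_KO mice, the call after flight was lost without FL_KO mouse 1 (-1.54, adjusted p = 0.412) or FL_KO mouse 2 (-1.61, adjusted p = 0.313). It was also lost without FL_WT mouse 5 (adjusted p = 0.112), FL_WT mouse 6 (0.0631), GC_WT mouse 7 (0.0681) or GC_KO mouse 4 (0.0673). Tooth markers in MdB summed to 94120 to 173400 TPM in GC_WT and 82610 to 201800 in GC_KO, which overlapped.

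In Liv, Gsta4 ran from 71.5 to 127 TPM in GC_WT and from 31.6 to 40.6 in GC_KO, and from 65.1 to 105 in FL_WT, with 33.9, 38.2, 39.5, 43.9 and 51.3 in FL_KO. The genotypes did not overlap, and the log2 fold changes were -1.49 ± 0.15 (adjusted p = 2.52e-07) and -1.14 ± 0.15 (adjusted p = 3.75e-05). A further call was made in eWAT on the ground (-0.58 ± 0.11, adjusted p = 0.00569). In iBAT it was called lower after flight (-0.48 ± 0.09, adjusted p = 0.0066), and without the 3 iBAT libraries with muscle markers the call was lost (-0.39, adjusted p = 0.121), as it was with only both flight groups in the fit (adjusted p = 0.107). In Kid, Gsta4 differed by -0.36 ± 0.09 on the ground with no overlap, and its adjusted p was 0.0913.

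Gsta2 and Gsta1, the inducible alpha members of mouse liver, were lower in Liv. Gsta2 ran from 38 to 98.3 TPM in GC_WT (median 77.1) and from 4.23 to 12.6 in GC_KO (median 8.68), and from 32.4 to 60.5 in FL_WT, with 5.99, 7.89, 9.01, 12.2 and 14.2 in FL_KO. The genotypes stood apart under both conditions, with log2 fold changes of -3.04 ± 0.28 (adjusted p = 6.23e-08) and -2.44 ± 0.29 (adjusted p = 6.04e-06). In Kid the 3 GC_WT mice had 100.4, 101 and 141 TPM and the 3 GC_KO mice 49.4, 52.1 and 53.2, a log2 fold change of -1.16 ± 0.17 (adjusted p = 0.00204). After flight it was -1.31 ± 0.16 in Kid (adjusted p = 0.000612), with 47, 67.3 and 76.5 TPM in FL_KO and 129, 164 and 178 in FL_WT, so each Nrf2-KO kidney was below each WT kidney of its condition. The other tissues in which Gsta2 passed the filter, TpB and Thy, had no genotype call.

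Gsta1 was near the limit of detection. In Liv it summed to 348 expected counts over the 6 GC_WT mice and 18 over the 6 GC_KO mice, so that the level in GC_KO was 5.23% of that in GC_WT (exact 95% interval 3.06% to 8.38%, for counting error only). In FL_KO it summed to 1 count over 5 mice, against 136 over the 6 FL_WT mice, which is 0.884% (0.0222% to 5.01%). Of the FL_WT mice, 3 were also at 0, so these groups overlapped. The edgeR calls (adjusted p = 0.00991 and 0.0217) rest on these counts, and the call after flight was lost without FL_KO mouse 1, 9, 11 or 12 (adjusted p = 0.051 to 0.0624). Limma made no call after flight, with -1.28 on log2(TPM + 1) (adjusted p = 0.167) and -2.59 on log2(TPM + 0.1) (adjusted p = 0.219). In MdB, the other tissue in which it passed the filter, Gsta1 had 2.77, 3.05 and 3.6 TPM in GC_WT, 0, 1.45 and 3.19 in FL_WT, 0, 0.7 and 1.32 in GC_KO and 0 and 0 in FL_KO, and no call was made (adjusted p = 0.958 and 0.814). Gm3776, which shares most of its sequence with Gsta1, was lower in Liv as well (-5.80 ± 0.69 on the ground and -5.32 ± 0.84 after flight, adjusted p = 6.05e-06 and 0.000324). Reads that fit both genes were divided between them, so the Gm3776 values are not independent of those of Gsta1. With the counts of Gsta1 and Gsta2 summed, Liv and Kid kept their calls, with -3.11 and -2.52 in Liv.

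Of the pi members, Gstp1 was lower in Nrf2-KO mice in Liv and Kid under both conditions. In Liv it ran from 2887 to 4572 TPM in GC_WT (median 3831), from 1913 to 2554 in FL_WT (median 2094) and from 1970 to 2482 in GC_KO (median 2303), and was 966, 1096, 1440, 1607 and 1610 in FL_KO. Genotypes did not overlap within the ground or the flight mice, and the log2 fold changes were -0.78 ± 0.12 (adjusted p = 0.000176) and -0.81 ± 0.12 (adjusted p = 0.000214). In Kid, the 3 GC_WT mice had 343, 344 and 362 TPM and the 3 GC_KO mice 206, 221 and 229, again without overlap, with -0.69 ± 0.07 (adjusted p = 0.000158) on the ground and -0.66 ± 0.07 (adjusted p = 0.000211) after flight. A call in eWAT on the ground (-0.27 ± 0.06, adjusted p = 0.0192) came with overlapping groups. It was lost without GC_KO mouse 11, whose library held epididymis and testis genes (-0.24, adjusted p = 0.0536), by limma on log2(TPM + 1) (-0.17, adjusted p = 0.081), and with only both ground groups in the fit (adjusted p = 0.121).

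Gstp2 had no genotype call in any tissue by edgeR. Its level in Liv was 29.1 ± 13.9 TPM in GC_WT and 13.5 ± 6.23 TPM in GC_KO, and the difference of -1.11 had an interval of -2.23 to 0.0034. Its counts were rarely whole numbers (0.568% of those above 0), and in FL_WT livers they ranged from 10.4 to 306. The sum of Gstp1 and Gstp2 was called in Liv and Kid, with -0.78 on the ground and -0.81 after flight in Liv. In eWAT the sum was not called on the ground (-0.19, adjusted p = 0.17).

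The theta members gave no genotype call in any of the 9 tissues by edgeR. Limma called Gstt2 lower in iBAT on the ground (-0.49, adjusted p = 0.0369 on log2(TPM + 1)), where edgeR gave -0.43 ± 0.17 (adjusted p = 0.236). In Liv, Gstt1 had a mean of 261, 275, 266 and 309.7 TPM in GC_WT, FL_WT, GC_KO and FL_KO, and the interval of the ground difference was -0.18 to 0.22. For Gstt2 in Kid the means were 215, 199, 212 and 182 TPM, with an interval of -0.47 to 0.38. The Gstt3 interval in Liv lay below 0 (-0.83 to -0.18), with an adjusted p of 0.131.

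Gstt1 in Kid stood in the other direction from the alpha and pi members there, with 127, 130.4 and 133 TPM in GC_WT, 158, 166 and 167 in FL_WT, 153, 169.8 and 174 in GC_KO and 179.6, 205 and 227 in FL_KO. Nrf2-KO mice lay above WT mice without overlap within ground and flight, and the differences were 0.33 ± 0.10 (adjusted p = 0.165) and 0.31 ± 0.10 (adjusted p = 0.161), so neither was called. Without FL_KO mouse 11 both were called, with 0.33 (adjusted p = 0.0297) and 0.43 (adjusted p = 0.0102). That mouse is not in the ground comparison and only shares the estimate of the spread with it. Leaving out any other mouse did not give these calls. The ground difference was also called with only both ground groups in the fit (0.34, adjusted p = 0.0402).

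The comparison of flight with ground mice asked which members responded to space flight in each genotype. By edgeR, Gstp1 in Liv, Gsta3, Gsta4 and Gstt3 in eWAT, and Gsta4 and Gstp1 in iBAT were called lower in both genotypes. Gstt1 in iBAT and Gstt1 and Gstt3 in Thy were called higher in both. Several of these calls were lost under other settings, as given below, such as Gstt1 in Thy of WT mice in 7 of 12 alternatives. Gstp1 in iBAT of WT mice was at 0.0027 by limma on log2(TPM + 1), with no call there in either genotype. In WT mice, 7 of 69 pairs were lower and 5 higher after flight, where 3.32% of all tests were called lower and 3.23% higher. In Nrf2-KO mice, 6 of 69 were lower and 4 higher, against 4.48% and 4.43%. These calls fell in Liv, eWAT, iBAT and Thy, and edgeR made none in TpB, MdB, Spl, Kid or Cbr, tissues in which at most 1.15% of all genes were called in either direction in either genotype. Without FL_KO mouse 11, Gstt1 was called higher in Kid of Nrf2-KO mice (0.35, adjusted p = 0.0381). In WT mice the shares of all genes called were 10.3% lower and 8.83% higher in iBAT, and 11% and 11.8% in Thy. In Nrf2-KO mice they were 16.6% and 17% in iBAT and 18.9% and 19.3% in Thy, so the members' shares in these tissues are read against a high background. Since GC_WT and GC_KO each serve in a genotype and a flight comparison, a high or low ground group moves both.

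**Figure D4:**
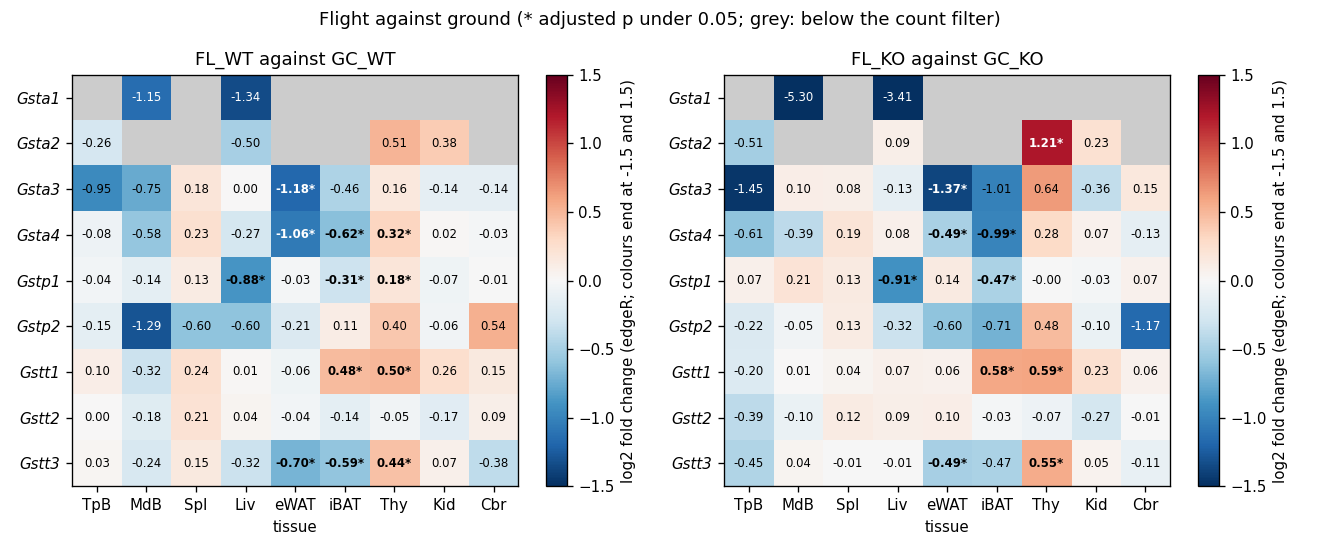
Log2 fold change of flight against ground mice by edgeR for each member (rows) and tissue (columns), in WT (left) and Nrf2-KO mice (right), with asterisks at an adjusted p under 0.05 and grey where counts were too low. Gstp1 in Liv and Gsta3, Gsta4 and Gstt3 in eWAT were called lower in both genotypes, and Gstt1 was called higher in iBAT and Thy in both.

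In Liv, Gstp1 was the only one of the 9 tested members that edgeR called after flight, and it was lower in both genotypes. Limma on log2(TPM + 1) also called Gsta1 lower in WT livers (-1.59, adjusted p = 0.0452), where edgeR gave -1.34 ± 0.71 (adjusted p = 0.358). The median of Gstp1 was 3831 TPM in GC_WT and 2094 in FL_WT, and 2303 in GC_KO and 1440 in FL_KO, without overlap between flight and ground mice in either genotype. The log2 fold changes were -0.88 ± 0.12 (adjusted p = 0.000196) and -0.91 ± 0.12 (adjusted p = 0.000211), beside 1.91% and 2.02% of all genes called lower in Liv. The interaction, which is the difference between both flight responses, was -0.03 with an interval of -0.36 to 0.30. The mean of FL_KO mice was 35.1% of that of GC_WT mice.

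Markers of liver zones and blood were read in the same livers. Pericentral hepatocyte markers (8 of 8 detected) summed to 5043 to 9018 TPM in GC_WT and 9517 to 11950 in FL_WT, which did not overlap, and to 6663 to 9907 in GC_KO and 6361 to 14150 in FL_KO, which did. Periportal markers overlapped between flight and ground mice in both genotypes. Erythroid markers were 569.9 to 801 TPM in GC_WT and 234 to 399 in FL_WT, without overlap, and 557 to 1197 and 330.2 to 828 in GC_KO and FL_KO, with overlap. Their part in the result was not tested.

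In eWAT, 3 of 7 tested members were lower after flight in both genotypes, where 6.78% of all genes were called lower in WT and 3.98% in Nrf2-KO mice. Gsta3 fell by 1.18 ± 0.17 on the log2 scale in WT (adjusted p = 9.99e-05) and by 1.37 ± 0.18 in Nrf2-KO mice (adjusted p = 0.000249), and neither pair of groups overlapped. Its mean in FL_KO mice was 12.6% of that in GC_WT mice. Gsta4 ran from 60.3 to 72.2 TPM in GC_WT, 30.1 to 46 in FL_WT and 39.8 to 54.7 in GC_KO, and was 30.2, 31.2, 32, 36.3 and 41 in FL_KO. It fell by 1.06 ± 0.12 in WT (adjusted p = 6.78e-06) without overlap and by 0.49 ± 0.12 in Nrf2-KO mice (adjusted p = 0.0165) with overlap. After flight the means of the genotypes were 34.1 TPM in FL_WT and 34.1 in FL_KO, with an interval of the difference of -0.24 to 0.24. The interaction of 0.57 ± 0.17 had an unadjusted p of 0.00235 in edgeR and an adjusted p of 0.394, so the responses of both genotypes were not shown to differ. The call in Nrf2-KO mice was lost with mouse numbers as a block (adjusted p = 0.0542) and without FL_KO mouse 2 (0.0563) or mouse 12 (0.053).

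Gstt3 was lower too in eWAT, with 22.1 to 27.4 TPM in GC_WT and 11.8 to 20.9 in FL_WT, without overlap (-0.70 ± 0.11, adjusted p = 0.000297). In Nrf2-KO mice it ran from 18.6 to 33.6 TPM on the ground and was 15.7, 17.1, 17.7, 17.9 and 18.6 after flight, with the highest flight mouse just below the lowest ground mouse before rounding (-0.49 ± 0.12, adjusted p = 0.0135). By limma on log2(TPM + 1) the difference in Nrf2-KO mice was -0.37 (adjusted p = 0.0992). Gstp1, Gstp2, Gstt1 and Gstt2 were not called there with the main settings, and the Gstp1 mean was 301 TPM in GC_WT and 317 in FL_WT. In Nrf2-KO mice the Gstp1 mean was 267 TPM on the ground and 296 after flight, without overlap. With mouse numbers as a block, edgeR called Gstp1 higher in Nrf2-KO mice (0.20, adjusted p = 0.0446). The white fat markers of FL_WT mice lay below those of all GC_WT mice, while FL_KO and GC_KO mice overlapped, in the ranges given above. Macrophage markers were 764 to 1021 TPM in GC_WT and 820.4 to 1855 in FL_WT, with overlap. The part of the fat markers in the 3 differences was not tested.

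In iBAT, members moved in both directions. Gsta4 ran from 61.5 to 71.5 TPM in GC_WT and 48.1 to 61.2 in FL_WT, and from 53.8 to 62.7 in GC_KO, with 36, 37.9, 38.6, 40.1 and 44.8 in FL_KO. Flight and ground mice did not overlap, and it fell by 0.62 ± 0.09 in WT (adjusted p = 5.12e-05) and by 0.99 ± 0.10 in Nrf2-KO mice (adjusted p = 8.97e-08). Gstt1 was higher, with 11.4 to 20.5 TPM in GC_WT and 20.5 to 39.6 in FL_WT, and 10.3 to 18.8 in GC_KO and 23.2, 24.6, 27.5, 27.7 and 30.1 in FL_KO. The WT groups touched at 20.5 TPM and the Nrf2-KO groups did not overlap. The log2 fold changes of Gstt1 were 0.48 ± 0.16 (adjusted p = 0.0456) and 0.58 ± 0.17 (adjusted p = 0.0131).

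Gstp1 was called lower in both genotypes in iBAT (-0.31 ± 0.09 and -0.47 ± 0.10, adjusted p = 0.0212 and 0.000702), with overlapping groups. The call in WT mice was lost with Gstp1 and Gstp2 summed (-0.25, adjusted p = 0.0642), with only both WT groups in the fit (adjusted p = 0.0533) and with mouse numbers as a block (0.0675). Gstt3 was called lower in WT mice (-0.59 ± 0.17, adjusted p = 0.0203) at a level of 1.02 to 2.64 TPM. In Nrf2-KO mice Gstt3 was not called with the main settings. It was called lower in them with RLE factors (-0.48, adjusted p = 0.049) and with flight mouse 04 included (-0.48, adjusted p = 0.032). Without the 3 flight libraries that held muscle markers, Gsta4 (-0.66 and -0.93) and Gstp1 (-0.43 and -0.46) kept their calls in both genotypes, and Gstt1 kept its call in Nrf2-KO mice (0.60, adjusted p = 0.0213). The calls in WT mice were then lost for Gstt1 (0.41, adjusted p = 0.155) and Gstt3 (-0.55, adjusted p = 0.0504), as they were without the count filter (adjusted p = 0.0778 and 0.0512) and, for Gstt1, with only both WT groups in the fit (0.0651). Without those libraries, calls were gained in Nrf2-KO mice for Gstt3 (-0.66, adjusted p = 0.013) and Gstp2 (-0.92, adjusted p = 0.0232).

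The iBAT values also depend on the scale. On log2(TPM + 1), the median gene of iBAT was higher by 0.31 in WT and 0.43 in Nrf2-KO mice after flight, whereas it was close to 0 after the TMM scaling used for the counts. On the TPM scale Gsta4 was at -0.31 and -0.55 and Gstt1 at 0.75 and 0.96, so both kept their direction and, by limma, their calls. Gstp1 was at 0.0027 and -0.04 on the TPM scale and had no call there, while Gstt2 was called higher there in Nrf2-KO mice (0.38, adjusted p = 0.0171). Macrophage markers in iBAT were 23.4 to 44.5 TPM in GC_KO and 53.4 to 109 in FL_KO, and white fat markers 1010 to 1841 and 2083 to 2523, neither with overlap, while both overlapped between GC_WT and FL_WT. Their part in these results was not tested.

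In Thy, 4 of 8 tested members were higher after flight in WT mice and 3 of 8 in Nrf2-KO mice, in a tissue where 11.8% and 19.3% of all genes were called higher. Gstt1 and Gstt3 were higher in both genotypes. Gstt1 ran from 2.16 to 3.43 TPM in GC_WT, 2.73 to 5.7 in FL_WT and 1.16 to 3.57 in GC_KO, and was 3.26, 3.3, 4.21, 4.44 and 5.36 in FL_KO. These groups overlapped, and the differences were 0.50 ± 0.18 (adjusted p = 0.0475) and 0.59 ± 0.20 (adjusted p = 0.0192). With mouse numbers as a block, neither was called (adjusted p = 0.057 and 0.0681). The Gstt1 call in WT mice was also lost without FL_KO mouse 1, 11 or 12 (adjusted p up to 0.0616), by DESeq2 (0.0621), with RLE factors (0.0502) and without the count filter (0.116), and that in Nrf2-KO mice without FL_KO mouse 9 (0.0786). For Gstt3 the differences were 0.44 ± 0.15 (adjusted p = 0.0362) and 0.55 ± 0.16 (adjusted p = 0.00923), at levels of up to 4.39 TPM, and the call in WT mice was lost without the count filter (adjusted p = 0.0935) and with only both WT groups in the fit (0.0682).

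Gsta4 and Gstp1 were called higher in Thy of WT mice. Gsta4 had 8.4 to 9.87 TPM in GC_WT and 10.9 to 17.2 in FL_WT (0.32 ± 0.11, adjusted p = 0.0335), and Gstp1 64.2 to 76.8 and 84.1 to 106 (0.18 ± 0.06, adjusted p = 0.033). Neither pair of groups overlapped in TPM, a scale on which the median gene of Thy was higher by 0.18 in WT and 0.16 in Nrf2-KO mice after flight. Both calls were lost without the count filter (adjusted p = 0.0956 for Gsta4 and 0.117 for Gstp1). Without FL_KO mouse 11, which shares the estimate of the spread, Gsta4 had an adjusted p of 0.0515 and Gstp1 of 0.062, and Gstp1 had 0.0646 without FL_KO mouse 1. In Nrf2-KO mice both were called higher by limma on log2(TPM + 1) (0.51 for Gsta4 and 0.26 for Gstp1, adjusted p = 0.00424 and 0.0161). By edgeR neither was called there with the main settings. For Gsta4, edgeR made the call with flight mouse 04 included (0.31, adjusted p = 0.0285) and without FL_KO mouse 1 (0.34, adjusted p = 0.032). Gsta2 was called higher in Thy of Nrf2-KO mice (1.21 ± 0.38, adjusted p = 0.0146), on expected counts of 0 to 7 per ground mouse and 7.51 to 13.4 per flight mouse.

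Several cell type lists differed in the same thymuses. Thymic epithelium markers summed to 725 to 954 TPM in GC_WT and 1021 to 1448 in FL_WT, without overlap, and to 521 to 849 in GC_KO and 807 to 1055 in FL_KO. B cell markers were 5.82 to 8.14 TPM in GC_WT and 9.17 to 13.5 in FL_WT, and 4.26 to 7.74 in GC_KO and 10.4 to 18.2 in FL_KO, without overlap in either genotype. In WT mice, thymocyte markers stood in the other direction, with 2092 to 2491 TPM in GC_WT and 1763 to 2192 in FL_WT, which overlapped. Their part in these results was not tested.

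**Figure D5:**
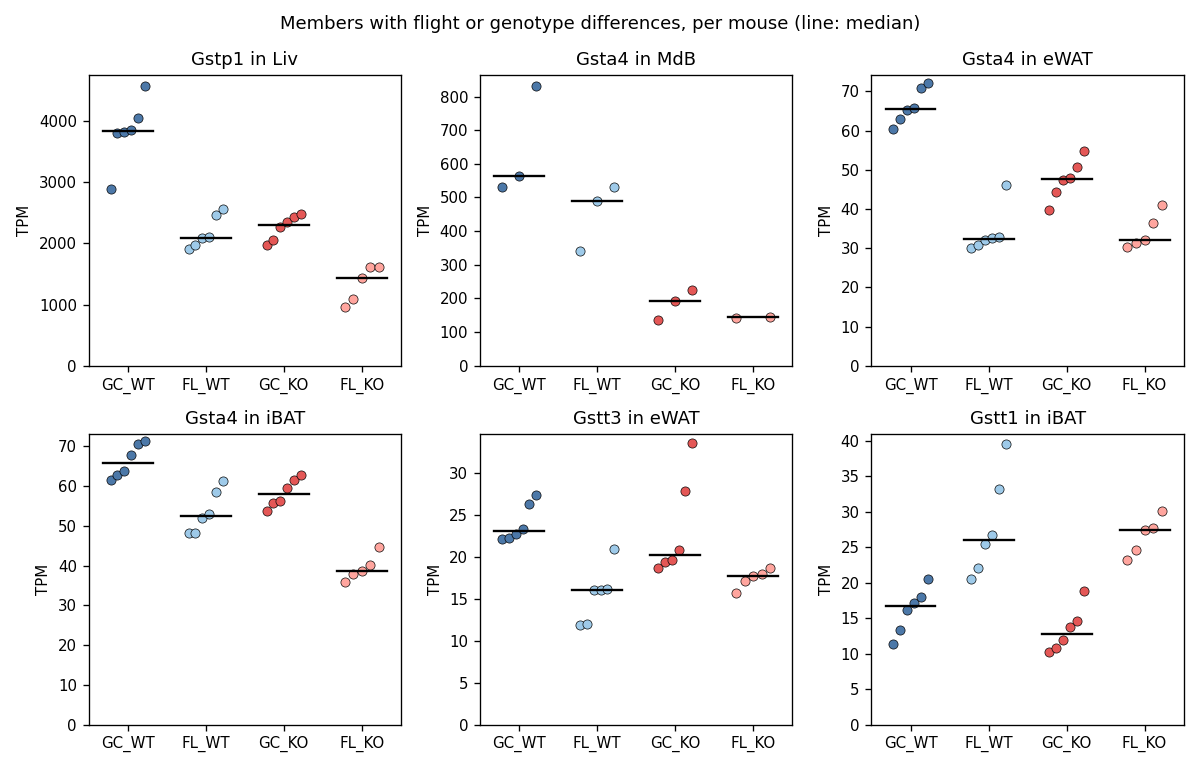
TPM per mouse (points, with the median as a line) on axes that start at 0, for Gstp1 in Liv, Gsta4 in MdB, eWAT and iBAT, Gstt3 in eWAT and Gstt1 in iBAT, in GC_WT, FL_WT, GC_KO and FL_KO. Gstp1 in Liv was lower with either flight or Nrf2 knockout and lowest with both, and Gsta4 in eWAT had means of 34.1 and 34.1 TPM in the flight groups.

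The interaction of genotype and flight was called for 0 of 69 pairs by edgeR, where 0% of all genes in the 9 tissues were called. At an unadjusted p under 0.05, 3 of the 69 pairs were found, namely Gsta4 in eWAT, Gsta4 in iBAT (-0.37 ± 0.13) and Gstp1 in Thy (-0.18 ± 0.09). The share of all genes at that threshold is not given, so these 3 pairs are not read as a result. DESeq2 called 0 of 77 pairs and had 2 at that unadjusted p, and limma called 0 of 57 and had 3. Flight responses that were called in 1 genotype are therefore not shown to be particular to it.

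The other genes of the pathway were described from lists, tissue by tissue, and their counts are read against the 0.814% lower and 0.836% higher among all tests on the ground and the 0.855% and 0.5% after flight. Of 114 tested pairs of the mu, omega, zeta, kappa, sigma and microsomal transferases (15 genes), 21 were lower and 1 higher on the ground in Nrf2-KO mice, with 22 and 2 after flight. The lower pairs were 18.4% and 19.3% of those tested. Their median log2 fold changes were -0.13 on the ground and -0.12 after flight. Gstm1, a mu class enzyme, had the smallest adjusted p, with -2.27 ± 0.12 in Liv, -1.35 ± 0.08 in Cbr and -1.31 ± 0.09 in iBAT on the ground. Of 8 relatives of the alpha, pi and theta members, 4 were tested in 19 pairs, and 1 pair was lower under each condition, which was Gm3776 in Liv. Reference targets of Nrf2 (12 genes, 100 pairs) were lower in 17 pairs and higher in 0 on the ground, and 17 and 0 after flight (17% lower under each condition), among them Nqo1, a quinone reductase, at -1.79 ± 0.12 in Kid and -2.05 ± 0.26 in Liv on the ground.

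Genes of the mercapturic acid route (21 genes, 153 pairs), which covers conjugate export and trimming, were lower in 6 pairs on the ground (3.92%) and 4 after flight (2.61%), and higher in 0. The conjugate exporters Abcc3 (-2.72 ± 0.18 in Liv) and Abcc2 (-0.70 ± 0.09 in Kid) were among those on the ground. Glutathione supply (11 genes, 92 pairs, with Gclc, Gclm and Slc7a11 also among the reference targets) had 8 lower pairs on the ground (8.7%) and 4 after flight (4.35%), with Gclc, the catalytic subunit of the rate-limiting enzyme of glutathione synthesis, at -0.43 ± 0.06 in eWAT.

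After flight, the other transferases were lower in 11 pairs and higher in 6 in WT mice, and in 14 and 7 in Nrf2-KO mice. Gstm1 in eWAT was higher, by 0.79 ± 0.10 in WT and 1.13 ± 0.10 in Nrf2-KO mice, in the tissue where Gsta3 and Gsta4 were lower. Among all tests, 3.32% were called lower and 3.23% higher in WT mice, and 4.48% and 4.43% in Nrf2-KO mice. The other transferases had 9.65% and 5.26% of their pairs lower and higher in WT mice, and 12.3% and 6.14% in Nrf2-KO mice. The mercapturic acid route had 6 lower and 7 higher pairs in WT mice (3.92% and 4.58%) and 6 and 12 in Nrf2-KO mice (3.92% and 7.84%). Glutathione supply had 3 and 4 in WT mice (3.26% and 4.35%) and 6 and 6 in Nrf2-KO mice (6.52% and 6.52%), and the reference targets 4 and 6 (4% and 6%), and 8 and 4 (8% and 4%). In WT mice the shares of these last 3 lists lay within 3 percentage points of those among all tests. The relatives had 2 lower and 0 higher of 19 pairs in WT mice and 1 and 1 in Nrf2-KO mice. The median over all tested genes was close to 0 in each of these comparisons.

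Genes whose pattern was most like that of a member were sought among 17836 genes, by Pearson's r over the 36 means of tissue and group. The points share libraries and tissues, so r is a description. Gstt2 was closest to Rbm47 (r = 0.978), Gstt1 to Phyhd1 (0.967), Gsta2 to Rab17 (0.963), Gstt3 to Lamp2 (0.943), Gstp1 to Lrrc3 (0.942), Gsta3 to Eif4ebp3 (0.936) and Gsta4 to Grb14 (0.909). With each tissue's mean subtracted, which leaves the pattern over the 4 groups, the closest were Hfe (0.848) and Prdx1 (0.801) for Gsta3, Ces2c (0.885) and Ugdh (0.833) for Gstp1, Pir (0.755) and Gm3776 (0.735) for Gsta4 and Cyp2a4 (0.897) and Cryl1 (0.879) for Gsta2. For Gsta1 they were Mup-ps12 (0.887) and Gm3776 (0.841), with Gm3776, which shares reads with Gsta1, also first over all 36 means (0.774). For the theta members they were Prpf40b and Kat2a (0.884 and 0.883, Gstt1), Isoc2a and Exo5 (0.742 and 0.716, Gstt2) and Dennd2d and Isl1 (0.851 and 0.785, Gstt3), and for Gstp2, Slc44a3 (0.859) over all means and Gm5547 and S100a8 (0.661 and 0.632) within tissues.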

How the data were processed

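RNA of 9 tissues from WT and Nrf2-KO mice was sequenced as strand-specific single reads. The authors mapped reads to mm10 with STAR 2.6.1 and estimated genes with RSEM 1.3.1. They deposited the expected counts (estimated, not normalized) and the TPM values as RSEM wrote them, and FPKM columns, which were not used. After rounding of the expected counts, each tissue was fitted on its own by edgeR 4.0.16 (R 4.3.3), using filterByExpr, TMM factors and the quasi-likelihood test with all 4 groups together. Benjamini-Hochberg adjustment of p-values ran over all genes tested in a tissue, and genes under 0.05 were called. Replicates are mice.

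Alternatives tried were limma 3.58.1 on log2(TPM + 1) and log2(TPM + 0.1), for genes whose mean TPM reached 5 in a group, DESeq2 1.42.0, RLE factors, no filter, flight mouse 04 included, only the groups compared, near-copies summed, each mouse of groups of up to 5 left out, mouse numbers as a block, and, chosen after the data were seen, the library number range as a term in TpB and 5 libraries with markers of another tissue left out. The steps were tested on simulated data. Flight and ground mice with the same number are different animals. Their deviations from the group means correlated with r above 0.1 in 5 of 5 pairs in Liv of Nrf2-KO mice (0.222 to 0.369). In no other tissue and genotype with 3 or more pairs did all pairs pass that limit. It was passed by 4 of 5 pairs in TpB (-0.48 to 0.749) and iBAT (0.0712 to 0.286) of Nrf2-KO mice. In Liv of WT mice 4 of 6 pairs passed it (0.0202 to 0.342).

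Named genes were the 9 members, Nfe2l2, up to 3 called genes per list and comparison with the smallest adjusted p, and the nearest patterns among genes at that level. The members and lists were chosen with earlier results of these data known. Gene positions and transcripts came from GENCODE vM21, and 93 symbols occur more than once in the table, so identifiers were used. The strand setting of the counting is not given in the sources used here.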

Additional observations from a re-analysis of the deposited data

Results flagged for a closer look

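In groups of 4 to 10 mice, the mouse farthest out was compared with Dixon's 95% limit, on TPM of members that passed the count filter. Of 212 groups, 17 (8.02%) held such a mouse, where chance gives about 1 in 20. For Gsta1 in Liv these were GC_KO mouse 11 (1.38 TPM, others 0 to 0.46) and FL_KO mouse 1 (0.16 TPM, others at 0), and for Gsta2 in TpB GC_WT mouse 6 (4.95 TPM, others 1.07 to 2.33).

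Gsta3 had 5 such mice. In TpB they were FL_WT mouse 3 (64.7 TPM, others 7.78 to 12.5) and FL_KO mouse 9 (20.5 TPM, others 4.9 to 9.07), and in Liv GC_WT mouse 8 (2614 TPM, others 1824 to 2096). In eWAT FL_KO mouse 2 was low (33.7 TPM, others 60.7 to 66.4), and in Thy GC_WT mouse 8 was high (5.07 TPM, others 2.43 to 3.36). For Gsta4 these were GC_KO mouse 1 in TpB (314 TPM, others 108 to 158) and FL_WT mouse 7 in eWAT (46 TPM, others 30.1 to 32.8).

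Gstp2 stood apart in FL_KO mouse 9 in eWAT (42.5 TPM, others 23.6 to 28.8), in GC_WT mouse 6 in Thy (3.1 TPM, others 0 to 1.08) and in FL_WT mouse 5 in Thy (4.88 TPM, others 0 to 1.42). The theta members did in FL_KO mouse 12 in Cbr for Gstt1 (13.8 TPM, others 19.4 to 21.2), in GC_KO mouse 9 in Spl for Gstt2 (34.1 TPM, others 23.8 to 26.9), and for Gstt3 in GC_KO mouse 12 in Thy (2.73 TPM, others 1.64 to 2.02) and FL_KO mouse 9 in Cbr (4.5 TPM, others 2.24 to 2.82).

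Some members stood in opposite directions in different tissues after flight, with every flight mouse beyond every ground mouse in TPM. In WT mice this was so for Gsta4, higher in Thy (0.32) and lower in eWAT (-1.06) and iBAT (-0.62), and for Gstp1, higher in Thy (0.18) and lower in Liv (-0.88). In Nrf2-KO mice it was so for Gstt3, higher in Thy (0.55) and lower in eWAT (-0.49). On log2(TPM + 1), the median gene of Thy was also higher after flight, by 0.18 in WT and 0.16 in Nrf2-KO mice. The edgeR calls of Gsta4 and Gstp1 in Thy were lost without the count filter (adjusted p = 0.0956 and 0.117). The share of all genes whose groups stood apart in this way is not given. The difference between tissues was not tested.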

How the results depend on the processing

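Of 51 calls of member, tissue and comparison, 34 held in every alternative that gave a value and 17 were lost in at least 1. Over all alternatives, calls held in 686 cases, lost the call with the same direction in 55 and reversed in 2. Both reversals were Gstp1 in iBAT, FL_WT against GC_WT, at 0.0027 by limma on log2(TPM + 1) and 0.0027 with a pseudocount of 0.1, where TPM and count scaling differ for the median gene. The 15 lower pairs on the ground ranged from 13 to 15 over the alternatives, with near-copies summed at the low end. There a sum was counted once, and the call of Gstp1 in eWAT was lost (-0.19, adjusted p = 0.17). The count of higher pairs on the ground became 1 with only the groups compared (Gstt1 in Kid). The 5 higher pairs of WT mice after flight became 0 without the count filter (adjusted p = 0.0778 to 0.117) and 3 with only the groups compared, and the cause was not tested. By limma with either pseudocount they were 3, because Gstt1 and Gstt3 in Thy were under the TPM limit and not tested, and the 3 that were tested stayed called. Without the 5 libraries with markers of another tissue, an alternative chosen after the data were seen, the lower pairs were 14 and 12 for genotype and 6 and 8 for flight, and the higher pairs 4 in WT and 4 in Nrf2-KO mice after flight. The library range in TpB, also chosen then, changed no count of lower pairs.

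With each mouse of small groups left out, lower pairs after knockout were 15 on the ground and 11 to 14 after flight, and higher pairs 0 to 1 and 0 to 1. Flight pairs in WT mice were 7 lower and 2 to 5 higher, and in Nrf2-KO mice 5 to 8 lower and 3 to 5 higher. The higher pairs of WT mice were 2 without FL_KO mouse 11 and 3 without FL_KO mouse 1, and without FL_KO mouse 11 calls were gained for Gstt1 in Kid in both genotype comparisons and after flight in Nrf2-KO mice, and for Gstp2 and Gstt3 in iBAT after flight in Nrf2-KO mice. Interaction calls stayed at 0. With mouse numbers as a block, WT mice had 6 lower and 4 higher pairs and Nrf2-KO mice 6 and 4, with no call in Liv changed. In Nrf2-KO mice, calls were lost for Gsta4 in eWAT and Gstt1 in Thy. Others were gained there for Gstp2 in iBAT (-0.72, adjusted p = 0.0173) and Gstp1 in eWAT (0.20, adjusted p = 0.0446). Counts were too low to test Gsta1 outside Liv and MdB and Gsta2 outside TpB, Liv, Thy and Kid, and the 2 FL_KO mice limit MdB.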

Other observations

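WT and Nrf2-KO kidneys differed in the make-up of the summed TPM of the 9 members. Gsta3 made up 17.6% of the sum in Kid of GC_WT mice and 3.12% in GC_KO mice, while the share of Gstt1 was 12.1% and 22.4% and that of Gstt2 20% and 28.2%. In MdB, the share of Gsta4 was 68% in GC_WT and 44.5% in GC_KO mice, and that of Gstp1 21.4% and 38.9%. In Liv, where both Gstp1 and Gsta3 were lower, the shares were closer, at 58.7% and 54.2% for Gstp1 and 32.4% and 35.7% for Gsta3. Shares of 1 sum rise when another member falls, so they say nothing of the members alone.

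In Cbr no member was called in any comparison by edgeR, although Gstm1 was (-1.35 ± 0.08 on the ground). Gstp1 made up 77.6% of the sum in Cbr of GC_WT mice and Gsta4 16.4%.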
